A study of Sus scrofa with 12 samples.

Results

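Dedifferentiated fat cells (DFAT) were set against dedifferentiated granulosa cells (DFOG), a pair of pig cell cultures grown from unlike tissues, to describe which differences between fat and granulosa cells were still present after culture. The arrays were chosen by their titles, 3 titled DFAT and 3 titled DFOG, which is 6 of the 12 arrays in the series. DFOG replicates 2 and 3 were nearly the same array and were averaged, so 5 samples entered the comparison. The other 6 arrays hold the isolated cells of origin, mature adipocytes (MA, n = 3) and follicular granulosa cells (GC, n = 3), and serve here as the reference for what differed before culture. DFAT cells came from MA of pig fat tissue by ceiling culture, in which buoyant fat cells attach to the upper wall of a filled flask and spread. DFOG cells came from granulosa cells of pig ovarian follicles kept in vitro. Both cultures were taken at semiconfluence, and neither received a stated agent or genetic change. The labels call the samples of each group biological replicates but give no breed, age, sex, passage number or animal for any of them, and any p-value refers only to how these arrays scatter, which may in part be technical. DFAT and DFOG also differ in how they were cultured, so cell of origin and culture method cannot be told apart in this comparison.

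Mature adipocytes are built by the transcription factors PPARG and CEBPA, store triglyceride in a large droplet and secrete hormones such as adiponectin. Granulosa cells line the follicle, respond to follicle-stimulating hormone through its receptor FSHR, and make steroids under the orphan receptors NR5A1 and NR5A2 and the zinc finger factor GATA4. When either cell is plated and divides, most of this equipment is shut down. Cells of connective tissue can nevertheless keep marks of the body site they came from, the HOX genes being the textbook example, because such positional programmes are passed on through cell division.

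Each value is a log2 RMA level, a summary of the probes for 1 transcript (a probe set) after all arrays were set to a common distribution, and a difference of 1 between values is a 2-fold difference. Values of low genes cannot be told from background, so folds of such genes are understated. DFOG replicates 2 and 3 differed with an SD of 0.07 over all tested probe sets, against 0.31 to 0.62 in every other pair of arrays of a group, and were counted as 1 sample (their mean), so DFOG has n = 2. The actin control's 3′ minus 5′ difference grows as RNA is shorter. It was 0.61 ± 0.33 over the 3 DFAT arrays and 0.39 ± 0.33 over the 2 DFOG samples (mean ± SD). It was higher in the isolated cells, 1.88 ± 0.52 in MA and 1.35 ± 0.55 in GC. The same measure for GAPDH was 0.37 ± 0.23 in DFAT, 0.36 ± 0.38 in DFOG, 0.68 ± 0.27 in MA and 0.85 ± 0.49 in GC. With the actin difference as a covariate, 3066 named genes passed limma's test between MA and GC, against 3209 without it. The poly-A spike-in controls averaged 7.66 ± 0.43 in DFAT and 7.74 ± 0.02 in DFOG. The Y-linked EIF1AY stood at 3.09, 8.20 and 3.06 in DFAT replicates 1, 2 and 3, at 3.24, 9.68 and 8.43 in the MA replicates and at 2.85 to 3.06 in DFOG, so 1 of the DFAT arrays carried a high Y-linked signal. Of the 7 measured sex-linked genes 0 passed limma's test between DFAT and DFOG, and 1, KDM6A, had an unadjusted p under 0.05.

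The labelled cell types were checked against defining markers. Of the adipocyte markers, ADIPOQ, FABP4, PPARG and CEBPA were higher in DFAT than in DFOG, and LIPE, the hormone-sensitive lipase, had a mean ± SD of 6.24 ± 0.49 in DFAT (n = 3), 5.63 ± 0.06 in DFOG (n = 2) and 12.57 ± 0.30 in MA (n = 3). Of the granulosa markers, FSHR was higher in DFOG, while INHA, HSD17B1 and AMH were at 7.44 ± 0.22, 5.32 ± 0.00 and 4.43 ± 0.35 in DFOG against 14.64 ± 0.21, 13.72 ± 0.33 and 7.10 ± 0.21 in GC. FOXL2 and CYP19A1 stood no higher in GC than in MA on this array and so check nothing. Both cultures carried the stromal cell markers THY1 and PDGFRB at high levels. THY1 was 11.80 ± 0.86 in DFAT and 9.87 ± 0.55 in DFOG, and PDGFRB was 11.63 ± 0.14 and 10.20 ± 0.07. Stromal surface genes were not alike throughout: of 13 measured, 3 were higher and 2 lower in DFAT by limma's test. An unadjusted limma p under 0.05 was found for 11 of the 13, THY1 and PDGFRB among them. PTPRC, the pan-leukocyte surface protein, lay between 3.19 and 3.50 on all 6 cultured arrays. The cultures had little of the terminal markers of either parent cell, both had high THY1 and PDGFRB, and no label went against its markers.

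Between the cultures, 1921 of 23999 probe sets passed the test (limma's moderated test over all 4 groups, Benjamini-Hochberg adjusted p under 0.05), 887 higher (3.70%) and 1034 lower (4.31%) in DFAT, and 1546 of them differed at least 2-fold. Among 6466 named genes, 314 were higher in DFAT (4.86%) and 360 were lower (5.57%). In each of these 674 genes every DFAT sample lay on 1 side of every DFOG sample, which was also the case for 2244 genes, or 34.7%, of all named genes. At least 4-fold differences were found for 121 genes on the DFAT side and 129 on the DFOG side, and at least 32-fold differences for 6 and 9. The cultures were closer to each other than their parents were: the SD of the mean difference over probe sets was 0.73 between DFAT and DFOG and 1.39 between MA and GC, and the median absolute difference of the named genes was 0.24 against 0.57. DFAT and MA were 1.14 apart on the same measure, and DFOG and GC were 1.08 apart. In bulk samples, fewer cells that express a gene and less RNA per cell cannot be told apart. The counts fell when DFOG was left with 1 sample, both without replicate 1 and without replicates 2 and 3. The fall was thus not particular to replicate 1. A gene said below not to pass without replicate 1, or without replicates 2 and 3, was set against 1 DFOG sample there. With only DFAT and DFOG in the fit the counts were 164 and 206. The 146 called genes named by the rule were rerun in 24 alternative analyses. None changed direction, and 90 passed in every analysis that tested them. In many of these the difference is the same by construction, so direction could not change. These are the fit of only DFAT and DFOG, the trended robust prior, the filter on low probe sets, the 2-fold minimum and the fits without an MA or GC array. Leaving out DFOG replicate 2 or 3 alone hardly changes the difference.

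The isolated cells differed in far more genes, 1741 higher in MA (26.9%) and 1468 lower (22.7%). Of the 1741, 208 (11.9%) were also higher in DFAT than in DFOG and 63 (3.62%) were lower. Of the 1468 genes lower in MA, 180 (12.3%) were also lower in DFAT and 24 (1.63%) were higher. Against the shares of all named genes, 4.86% and 5.57%, the side found between MA and GC was the more frequent one in both directions. The share grew with the size of the isolated difference: among the 49 genes higher in MA by at least 6 on the log2 scale, 28 were still higher in DFAT, and among the 29 higher in GC by as much, 12 were still higher in DFOG. None of those 78 genes was called on the opposite side. Called or not, 1198 of the 1741 genes (68.8%) lay higher in DFAT and 1010 of the 1468 (68.8%) lay lower. Among the 49 and the 29 these were 49 and 23. The median cultured difference over all named genes was 0.01. With 2 DFOG samples, a gene that did not pass may still differ. Read from the cultures, 208 of the 314 genes higher in DFAT (66.2%) and 180 of the 360 lower ones (50%) already differed the same way between the isolated cells. Across the 6466 genes the 2 differences had a Pearson correlation of 0.40 and a slope of 0.21, given as a description because genes share arrays and are not replicates. The arrays of the 2 comparisons are separate, but the fit pools their spread, and the labels do not say whether cultured and isolated cells share animals. Of 13 macrophage markers 10 were higher in MA than in GC. So were 5 of 13 endothelial markers, with 1 lower, and 3 of 9 lymphocyte markers. Of 12 theca cell and oocyte markers 5 were lower in MA. The part of such other cells in the isolated differences was not tested.

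**Figure D1:**
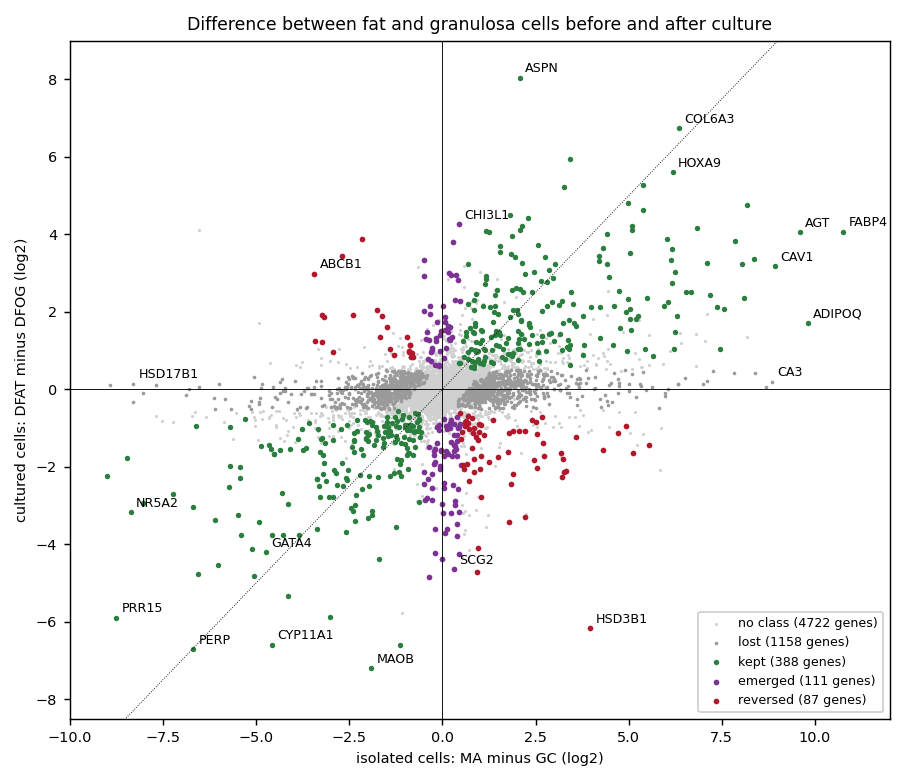
Each point is 1 of the 6466 named genes, with the isolated difference (MA minus GC, log2) on the horizontal axis and the cultured difference (DFAT minus DFOG, log2) on the vertical axis; the dotted line marks equal differences. Kept genes (388) fill the lower left and upper right, reversed genes (87) the other corners, emerged genes (111) lie near the vertical axis and lost genes (1158) along the horizontal axis.

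**Figure D2:**
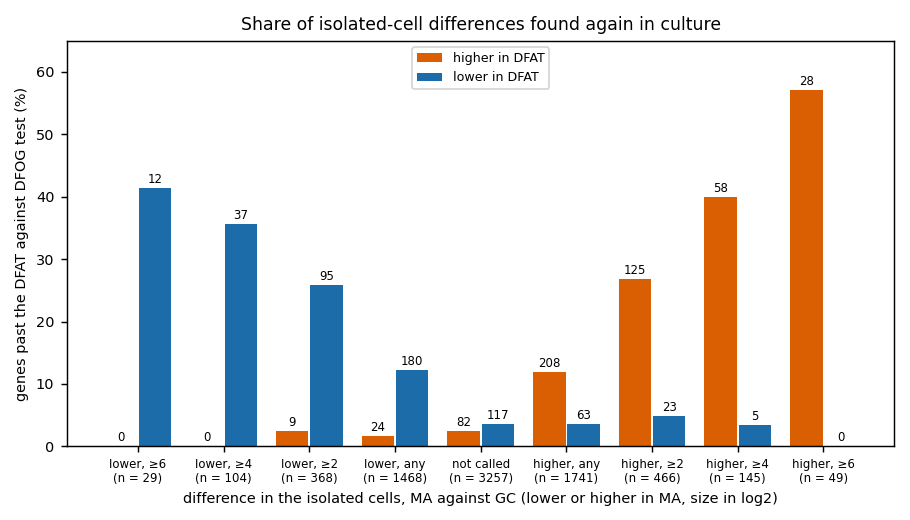
Bars give the percentage of genes past the DFAT against DFOG test, higher (orange) or lower (blue) in DFAT, for genes grouped by their difference between MA and GC; sets with a larger minimum are nested in those with a smaller one, and numbers over bars are gene counts. On the MA side the orange bars grow from 208 of 1741 genes to 28 of 49, and on the GC side the blue bars grow from 180 of 1468 to 12 of 29.

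Genes that differed the same way before and after culture are called kept here. Among the 208 kept on the fat side, the DFAT level lay within 2-fold of MA and the DFOG level within 2-fold of GC in 53 genes, only DFAT lay that near its parent in 28, only DFOG in 57, and neither in 70. Among the 180 kept on the granulosa side the same counts were 60, 45 for DFAT alone, 30 for DFOG alone and 45 for neither. In 72 and 60 of the kept genes the difference was larger in culture than before it. The remaining isolated differences that were small in culture (under 0.5 and not called) and differed significantly from it are called lost, and they numbered 604 on the MA side and 554 on the GC side. Of the 3209 named genes called between MA and GC, 388 were kept, 87 were called on the opposite side and 1158 were lost. The rest met none of these definitions. The test of the change in difference itself, (DFAT minus DFOG) minus (MA minus GC), passed for 1903 named genes (29.4%). The isolated comparison depends on how arrays are scaled, because the spike-in controls differed between MA and GC: centring on them shifted MA minus GC by -1.35 and called 1146 probe sets higher and 19065 lower, against 4976 and 4737. Kept genes then numbered 103 on the fat side and 178 on the granulosa side, while DFAT minus DFOG shifted by 0.08. The shift is 1 constant for all genes, so by construction it turns the isolated direction of genes higher in MA by less than its size, which are 50 of the 208 kept genes; it is no test of single genes.

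The genes with the largest excess in DFAT included matrix proteins, secreted proteins of the serpin family, complement proteases and a HOX gene, and 14 of the 15 were kept from the isolated cells. ASPN, asporin, a small leucine-rich proteoglycan that binds collagen, stood at 10.85, 11.71 and 11.21 in the DFAT arrays and 3.14, 3.28 and 3.30 in the DFOG arrays. All DFAT arrays lay far above all DFOG arrays, and the difference was 8.04 ± 0.30 (SE; 264-fold; limma adjusted p = 8.13e-08), while MA exceeded GC by only 2.07. COL6A3, a chain of the microfibrillar collagen VI, stood at 10.19, 12.12 and 13.03 in the DFAT arrays and 4.95, 4.93 and 5.31 in the DFOG arrays. DFAT replicate 1 was the lowest of its group, but the difference of 6.75 ± 0.59 (SE; limma adjusted p = 2.7e-05) was close to the isolated difference of 6.34. SERPINF1, the anti-angiogenic serpin also known as PEDF, stood at 11.37, 10.89 and 12.55 in the DFAT arrays and 5.41, 5.90 and 5.88 in the DFOG arrays, a difference of 5.95 ± 0.48 (SE; limma adjusted p = 1.6e-05). HOXA9, a homeobox gene of the posterior HOXA cluster, is described with the regulators. C1S and C1R, the proteases that start the classical complement pathway, differed by 5.27 ± 0.58 and 5.22 ± 0.59 (SE; limma adjusted p = 0.000155 and 0.000175), with DFAT replicate 1 lowest for both. SERPING1, the inhibitor of those proteases, differed by 4.22 ± 0.55 (SE; limma adjusted p = 0.00056).

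The rest of that group mixed membrane and enzyme genes. SGCD, a sarcoglycan of the complex that links the cytoskeleton to the matrix, stood at 8.96, 9.65 and 9.22 in the DFAT arrays and 4.50, 4.45 and 4.41 in the DFOG arrays, a difference of 4.81 ± 0.29 (SE; limma adjusted p = 2.16e-06) against 4.98 in the isolated cells. CTSK, the collagen-degrading protease cathepsin K, differed by 4.62 and the caveolar protein CAV2 by 4.18. ALDH1A1, which oxidises retinaldehyde to retinoic acid, stood at 8.76, 6.70 and 10.28 in the DFAT arrays and 3.76, 3.84 and 3.94 in the DFOG arrays. The DFAT arrays were far apart, replicate 2 lowest, but none overlapped DFOG, and the difference of 4.76 ± 0.72 (SE; limma adjusted p = 0.00151) did not pass with only DFAT and DFOG in the fit. ICAM1, a leukocyte adhesion receptor, and ANPEP, aminopeptidase N, differed by 4.51 and 4.44, beside 1.82 and 2.29 in the isolated cells. PTGS2, the inducible cyclooxygenase, was at 7.88, 7.75 and 5.93 in DFAT, lowest in replicate 3, against 3.20, 2.76 and 2.75 in DFOG. CHI3L1, a secreted chitinase-like protein, was the 1 gene of the 15 not called between MA and GC (0.45), and it differed by 4.27 ± 0.43 in culture (SE; limma adjusted p = 7.64e-05).

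On the DFOG side the largest differences included the oxidase MAOB, the steroid enzymes CYP11A1 and HSD3B1 and the junction genes PERP and CLDN11. MAOB, a monoamine oxidase of the outer mitochondrial membrane, stood at 4.54, 4.76 and 4.02 in the DFAT arrays and 11.64, 11.66 and 11.64 in the DFOG arrays. The DFOG arrays were almost equal and the difference was -7.20 ± 0.24 (SE; 147-fold; limma adjusted p = 6.11e-08), far larger than the isolated -1.91. Its paralog MAOA went the other way, at 9.95, 9.94 and 9.84 in the DFAT arrays and 9.07, 8.40 and 8.53 in the DFOG arrays, a difference of 1.14 ± 0.22 (SE; limma adjusted p = 0.00784) beside 3.80 between MA and GC; MAOA was named after its values were seen. PERP, a desmosome-associated target of p53, stood at 4.33, 5.11 and 3.82 in the DFAT arrays and 11.49, 10.80 and 10.78 in the DFOG arrays. Its difference of -6.72 ± 0.46 (SE; limma adjusted p = 4.77e-06) was close to the isolated -6.69. RGS5, a regulator of G protein signalling that is also a pericyte marker, stood at 3.91, 4.02 and 4.48 in the DFAT arrays and 10.67, 10.83 and 10.81 in the DFOG arrays, a difference of -6.61 ± 0.46 (SE; limma adjusted p = 5.67e-06). The other 5 pericyte markers measured did not pass the test, and the list's mean level ranged over 6.27 to 7.09 in DFAT and 6.93 to 7.03 in DFOG. The part of pericytes in the RGS5 difference was not tested.

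PRR15, a proline-rich protein, stood at 3.60, 3.56 and 3.63 in the DFAT arrays and 9.62, 9.37 and 9.36 in the DFOG arrays, a difference of -5.89 ± 0.24 (SE; limma adjusted p = 1.4e-07) that was -8.76 between MA and GC. F2R, the thrombin receptor, differed by -5.89, and STC1, the glycoprotein hormone stanniocalcin, by -5.77; 2 of the 3 STC1 probe sets passed. RNF128, an E3 ubiquitin ligase, stood at 3.06, 3.04 and 3.29 in the DFAT arrays and 8.46, 8.50 and 8.48 in the DFOG arrays, a difference of -5.35 ± 0.21 (SE; limma adjusted p = 1.15e-07). ALCAM, an adhesion molecule used as a stromal cell marker, differed by -4.81, beside -5.06 between MA and GC. CLDN11, a tight junction claudin, differed by -4.76 against -6.56, and the Wnt receptor FZD5 by -4.53 against -6.03. CAP2, an actin-binding protein, and SCG2, a secretory granule protein, differed by -4.84 and -4.64 but by only -0.37 and 0.30 between the isolated cells. BPI, an antibacterial lipid-binding protein, was at 5.81, 5.21 and 5.47 in DFAT and 10.31, 10.10 and 10.08 in DFOG, although MA had exceeded GC by 0.92. Every gene in these 4 paragraphs other than ALDH1A1 and MAOA passed the test in all alternative analyses that measured it; MAOA was not run in them.

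**Figure D3:**
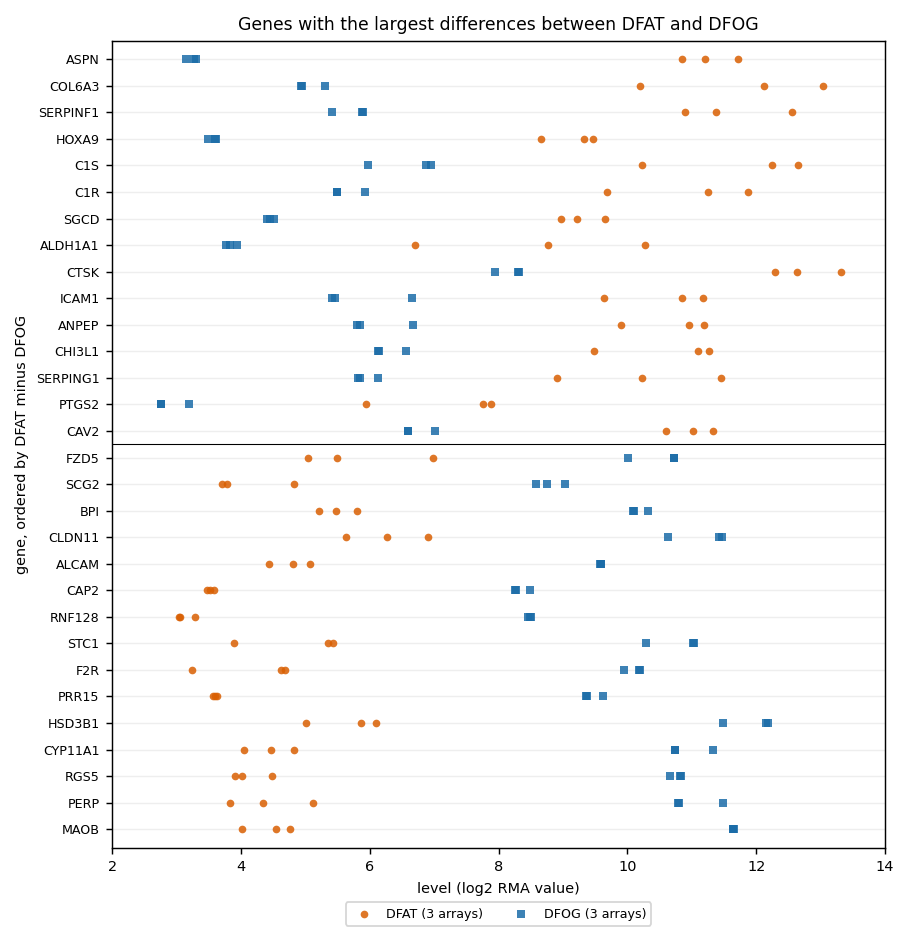
Log2 RMA levels of the 15 genes furthest above and the 15 furthest below DFOG in DFAT, with 1 point per array (DFAT circles, DFOG squares; DFOG replicates 2 and 3 almost coincide). For every gene the groups are apart, as the choice of genes required. The DFAT points of ALDH1A1 and COL6A3 spread the most.

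Part of the adipocyte programme separated DFAT from DFOG, and all of the called members lay on the DFAT side. The counts of list members here and below stand beside 4.86% higher and 5.57% lower of all named genes. The lists were chosen with earlier results of these data known. Of 22 measured adipocyte identity genes 9 were higher and 0 lower, and 13 did not pass. An unadjusted limma p under 0.05 was found for 16 of the 22, beside 4221 of the 23999 probe sets. The median difference was 1.05, against 0.01 over all named genes, while 20 of the 22 had been higher in MA with a median of 4.63. FABP4, the fatty acid carrier of fat cells, stood at 8.81, 10.35 and 9.89 in the DFAT arrays and 5.09, 6.17 and 6.13 in the DFOG arrays. The groups were well apart (4.07 ± 0.40, SE; 16.7-fold; limma adjusted p = 6.7e-05), yet DFAT had little of the MA level of 14.06 ± 0.09 (SD, n = 3), and DFOG stood above the 3.31 ± 0.13 of GC. AGT, angiotensinogen, averaged 8.27 ± 0.40 in DFAT and 4.21 ± 0.05 in DFOG (± SD, n = 3 and 2), a difference of 4.06 ± 0.24 (SE; limma adjusted p = 1.72e-06). ADIPOQ, adiponectin, stood at 5.00, 6.82 and 5.51 in the DFAT arrays and 4.05, 3.98 and 4.15 in the DFOG arrays, with DFAT replicate 2 highest; the difference of 1.72 ± 0.42 (SE; limma adjusted p = 0.0273) compares with 9.80 between MA and GC. CIDEA, a lipid droplet protein, differed by 2.07 ± 0.25, and SCD, the stearoyl-CoA desaturase, by 2.08 ± 0.30 (SE; limma adjusted p = 0.000344 and 0.00113). PNPLA2, the first lipase of triglyceride breakdown, differed by 1.32 and the retinol carrier RBP4 by 1.05, each in 1 of 2 probe sets.

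The fat cell regulators followed different courses. PPARG stood at 7.72, 7.99 and 7.93 in the DFAT arrays and 5.77, 5.00 and 4.97 in the DFOG arrays, with the groups apart by 2.50 ± 0.36 (SE; limma adjusted p = 0.000966), almost the 2.41 found between MA and GC. Its level in both parents lay above that of either culture, 12.38 ± 0.26 in MA and 9.98 ± 0.68 in GC (SD, n = 3). CEBPA, its partner, stood at 5.48, 5.62 and 5.97 in the DFAT arrays and 4.79, 4.52 and 4.50 in the DFOG arrays, a difference of 1.04 ± 0.26 (SE; limma adjusted p = 0.0309) in 1 of 2 probe sets against 5.43 before culture. CEBPB differed by -0.40 and did not pass. Members that did not pass include the lipases LPL (1.89 ± 0.71, SE; limma adjusted p = 0.169) and LIPE (0.60 ± 0.26; adjusted p = 0.261), the triglyceride synthase DGAT2 (1.26 ± 0.45; adjusted p = 0.147), fatty acid synthase FASN (-0.26) and leptin LEP (0.74). The lipid droplet protein PLIN2 (1.02 ± 0.29, SE, limma adjusted p = 0.0541) and CFD (1.39 ± 0.43, SE, limma adjusted p = 0.0841) also did not pass. Both passed in some alternatives. LPL spread widely, at 6.44, 8.54 and 9.15 in the DFAT arrays and 7.03, 5.30 and 5.26 in the DFOG arrays, and DFAT overlapped DFOG. Without DFAT replicate 1, LPL (2.69), DGAT2 (1.78) and LEP (0.97) passed (limma adjusted p = 0.00838, 0.0053 and 0.0435); LPL also passed in 3 other alternatives and DGAT2 in 1 other. ADIPOQ, CEBPA, PNPLA2 and RBP4 did not pass without DFOG replicate 1, and ADIPOQ, CEBPA and RBP4 also did not without DFOG replicates 2 and 3. RBP4 passed in 5 of 24 alternatives and CEBPA in 15 of 23, neither of them without DFAT replicate 3, while FABP4, AGT, PPARG, SCD and CIDEA passed in all alternatives.

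Some members of a list of limb and adipose mesenchyme regulators were higher in DFAT. Only 7 of its 30 genes were measured. Of these 5 were higher, beside 4.86% of all named genes, and 0 lower (median 1.17). TWIST2, a basic helix-loop-helix factor of dermal and adipose mesenchyme, stood at 7.11, 7.99 and 8.86 in the DFAT arrays and 4.51, 4.49 and 4.62 in the DFOG arrays, a difference of 3.45 ± 0.45 (SE; limma adjusted p = 0.000522) beside 4.21 between MA and GC. PRRX1, a homeobox factor of limb and connective tissue mesenchyme, stood at 9.61, 10.69 and 11.09 in the DFAT arrays and 7.12, 8.35 and 8.33 in the DFOG arrays; the groups did not overlap (2.73 ± 0.42, SE; limma adjusted p = 0.00163). TCF7L2, a transcription factor of the Wnt pathway, differed by 2.14 in culture and 0.01 before it. The glucocorticoid receptor NR3C1 and the fat and muscle factor KLF15 differed by 1.17 and 1.15, NR3C1 in 1 of 4 probe sets. PRRX1 did not pass with only DFAT and DFOG in the fit, and TCF7L2, NR3C1 and KLF15 did not without DFOG replicate 1, NR3C1 and KLF15 did not without replicates 2 and 3, and KLF15 did not without DFAT replicate 2 or 3.

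HOX genes were measured for 6 of 39 listed members, of which 3 were higher in DFAT and 0 lower (median 0.89). HOXA9 stood at 9.47, 8.66 and 9.32 in the DFAT arrays and 3.49, 3.61 and 3.60 in the DFOG arrays. The 3 DFAT arrays were close to the MA arrays (9.49, 9.32 and 9.23) and the DFOG arrays to the GC arrays (3.32, 3.11 and 3.06), so that the cultured difference of 5.60 ± 0.23 (SE; 48.7-fold; limma adjusted p = 1.4e-07) was near the isolated 6.18. The change between them, -0.57, did not pass limma's interaction test (adjusted p = 0.23). HOXB7 was at 6.88, 6.07 and 6.87 in the DFAT arrays and 3.92, 4.81 and 4.77 in the DFOG arrays, a difference of 2.25 ± 0.32 (SE; limma adjusted p = 0.000928). HOXA3 differed by 1.19 ± 0.27 (SE; limma adjusted p = 0.0181) and did not pass without either DFOG sample. HOXD8, HOXD10 and HOXD12 differed by 0.59, 0.38 and 0.35 and did not pass.

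Gonadal and urogenital regulators were divided between the cultures. Of 14 measured members 4 were lower in DFAT and 3 were higher (median -0.30). GATA4, which drives gonadal somatic genes, stood at 5.17, 4.04 and 4.48 in the DFAT arrays and 9.41, 8.10 and 8.18 in the DFOG arrays. Its difference of -4.21 ± 0.45 (SE; limma adjusted p = 0.000125; 1 of 2 probe sets) was close to the -4.74 of the isolated cells, and DFOG (8.78 ± 0.90) lay near GC (8.99 ± 0.66). GATA6 was at 6.09, 8.07 and 8.12 in DFAT, lowest in replicate 1, and at 10.12, 10.18 and 10.06 in DFOG, a difference of -2.69 ± 0.52 (SE; limma adjusted p = 0.00743) that did not pass without either DFOG sample. NR5A1, steroidogenic factor 1, stood at 6.66, 6.59 and 6.64 in the DFAT arrays and 8.11, 8.06 and 8.17 in the DFOG arrays. The difference was -1.48 ± 0.20 (SE; limma adjusted p = 0.000626) in 1 of 2 probe sets, against -2.42 before culture. The nuclear receptor NR2F1 was also lower (-0.95) and did not pass without either DFOG sample. ALDH1A1, TCF21 and SIX4 were the members higher in DFAT: TCF21, a mesenchymal factor that is also expressed in fat precursors, differed by 2.14 ± 0.30 (SE; limma adjusted p = 0.00096) and by -0.34 before culture, and the homeobox gene SIX4 by 2.45. WT1, the Wilms tumour factor of gonad and kidney, was 5.78, 5.43 and 4.35 in DFAT and 8.38, 6.15 and 6.11 in DFOG and did not pass (limma adjusted p = 0.0885). It passed with the replicate block (-1.88), with poly-A centring (-1.99) and, as -3.19, without DFOG replicates 2 and 3 (limma adjusted p = 0.0236, 0.0176 and 0.0158).

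Granulosa identity genes were called in 5 of 24 measured members. Of these 4 were lower in DFAT, beside 5.57% of all named genes, 1 was higher and 19 did not pass (median of all 24, -0.10), although 15 had been lower in MA than in GC (median -2.76). FSHR stood at 3.52, 3.71 and 3.38 in the DFAT arrays and 6.04, 5.66 and 5.62 in the DFOG arrays, a difference of -2.30 ± 0.31 (SE; limma adjusted p = 0.000735) beside -3.36 in the isolated cells. NR5A2, the liver receptor homolog needed for ovulation, stood at 5.41, 4.94 and 4.78 in the DFAT arrays and 8.39, 8.06 and 8.04 in the DFOG arrays, a difference of -3.18 ± 0.31 (SE; limma adjusted p = 6.61e-05; 3 of 5 probe sets), with GC far higher at 12.97 ± 0.51. BMPR1B, a receptor for oocyte growth factors, was at 7.73, 7.73 and 7.43 in DFAT and 10.49, 10.86 and 10.84 in DFOG, a difference of -3.04 ± 0.20 (SE; limma adjusted p = 3.92e-06). PTX3, a matrix pentraxin of the expanding cumulus, was the member higher in DFAT, by 3.61 ± 0.54 (SE; limma adjusted p = 0.00138), and it had also been higher in MA (6.17). The luteinising hormone receptor LHCGR (-0.44), follistatin FST (-0.70) and inhibin INHA (-0.70) did not pass, against -5.18, -6.33 and -7.68 before culture. LHCGR passed as the mean over its probe sets (-1.16, limma adjusted p = 0.0416), and FST passed without DFAT replicate 2 (-1.13, limma adjusted p = 0.025).

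Steroid synthesis genes were called mostly on the DFOG side, and NR5A1 and NR5A2 of that list are its regulators. Of 19 measured members 4 were lower in DFAT and 1 was higher (median 0.02). CYP11A1, the enzyme that cuts the cholesterol side chain to start steroid synthesis, stood at 4.05, 4.82 and 4.46 in the DFAT arrays and 11.33, 10.74 and 10.74 in the DFOG arrays. The groups were apart by -6.59 ± 0.47 (SE; limma adjusted p = 6.65e-06), and DFOG (11.03 ± 0.42) stood above GC (8.73 ± 0.85). HSD3B1, the dehydrogenase of the next step, stood at 6.09, 5.01 and 5.86 in the DFAT arrays and 11.48, 12.18 and 12.16 in the DFOG arrays, a difference of -6.17 ± 0.46 (SE; limma adjusted p = 7.88e-06). In the isolated cells it had been the other way, 9.92 ± 0.83 in MA and 5.95 ± 0.33 in GC, so DFOG was above and DFAT below its parent. TSPO, an outer mitochondrial membrane protein, was higher in DFAT by 1.89. HSD17B1, which makes estradiol from estrone, was 5.58, 5.61 and 5.18 in DFAT and 5.32, 5.28 and 5.35 in DFOG, both far under the 13.72 ± 0.33 of GC. The cholesterol transporter STAR (0.27) and CYP19A1 (0.02) did not pass, and their isolated differences were 0.03 and 0.08. Of 12 theca cell and oocyte markers 0 passed limma's test and 1, KIT, had an unadjusted p under 0.05; among them was CYP17A1 at 5.13 ± 0.10 in DFAT and 5.20 ± 0.29 in DFOG.

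**Figure D4:**
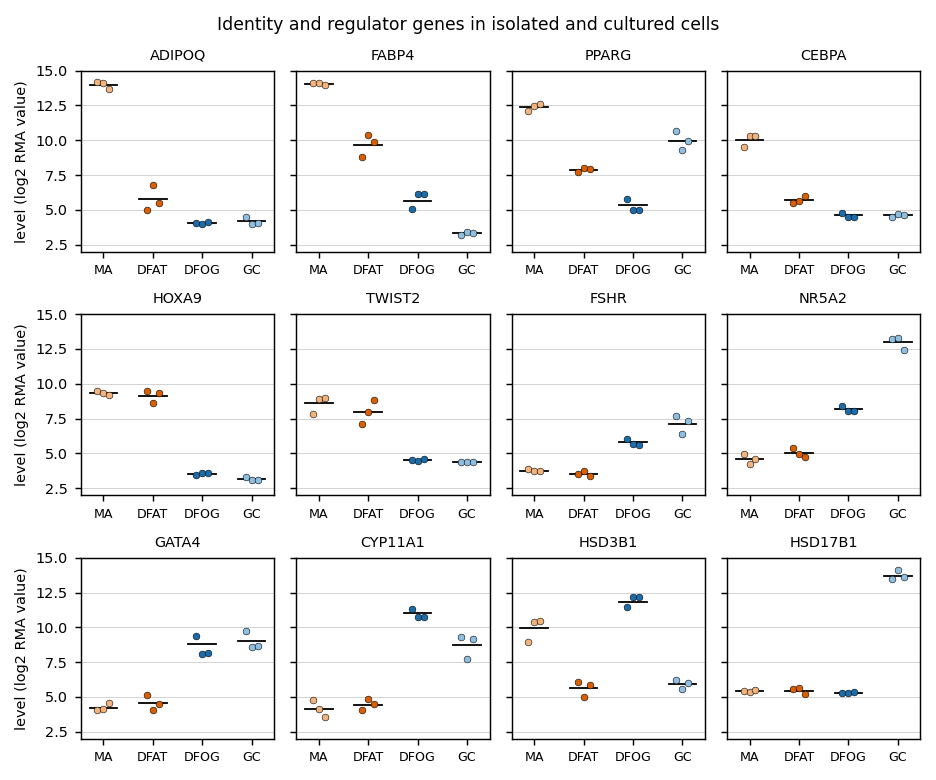
Log2 RMA levels of 12 genes in MA, DFAT, DFOG and GC, with 1 point per array and a line at the group mean (DFOG replicates 2 and 3 weigh as 1 sample). HOXA9 and TWIST2 lay near the levels of the parent cells, ADIPOQ and CEBPA stood near the lower end in both cultures, HSD17B1 was low in both, and HSD3B1 crossed over.

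Fibrillar matrix genes were higher in DFAT for 9 of 22 measured members and lower for 1 (median 0.57). Besides COL6A3, LOXL1, a lysyl oxidase that cross-links elastin, stood at 11.01, 10.76 and 11.10 in the DFAT arrays and 6.21, 7.38 and 7.59 in the DFOG arrays (difference 4.11 ± 0.37, SE; limma adjusted p = 3.24e-05). COL6A2 stood at 9.86, 10.71 and 11.03 in the DFAT arrays and 6.83, 6.07 and 6.03 in the DFOG arrays (difference 4.09 ± 0.34, SE; limma adjusted p = 2.1e-05). The groups did not overlap for either gene, and the isolated differences were smaller, 2.08 and 1.18. THBS2, a thrombospondin that binds matrix, differed by 3.23 against 8.03 before culture, and the elastic fibre protein MFAP5 by 2.90. FBLN1, fibulin 1, was the member higher in DFOG, at 9.29, 9.68 and 9.66 against 6.68, 6.89 and 6.53 in DFAT (-2.78 ± 0.30, SE; limma adjusted p = 0.000134), as in GC before culture (-2.94). Of 5 small leucine-rich proteoglycans 3 were higher in DFAT and 0 lower (median 2.26): ASPN, BGN, biglycan, by 2.11 ± 0.28 (SE; limma adjusted p = 0.000558), and LUM, lumican, by 2.53 ± 0.68 (SE; limma adjusted p = 0.044). COL1A2, COL5A1, the fibrillin FBN1 and the tenascin TNC were the other members higher in DFAT, by 2.20, 1.15, 1.51 and 2.04; these 4 were not rerun in the alternatives. MFAP5 and LUM did not pass without either DFOG sample, and LUM did not without DFAT replicate 2 or 3.

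Not all matrix genes followed. Of 7 basement membrane genes 0 passed limma's test in either direction (median 0.42), and 3 had an unadjusted p under 0.05: COL15A1, LAMC1 and NID2. Matrix proteolysis genes divided evenly, 3 of 16 higher and 3 lower in DFAT. PLAU, the urokinase plasminogen activator, was at 11.27, 11.09 and 11.69 in DFAT and 7.83, 7.46 and 7.45 in DFOG (3.71 ± 0.41, SE; limma adjusted p = 0.000152), while PLAT, the tissue plasminogen activator, was at 9.14, 8.53 and 8.73 and 11.26, 11.09 and 11.09 (-2.37 ± 0.31; limma adjusted p = 0.000538). The 2 activators of plasmin thus lay on opposite sides, as they had in the isolated cells (1.54 and -3.11). MMP14, a membrane collagenase, was higher in DFAT by 1.49; the protease inhibitor TIMP1 and the protease ADAMTS1 were lower (-1.27 and -3.24). MMP14 and TIMP1 did not pass without DFOG replicates 2 and 3, and ADAMTS1 and CD34 did not without replicate 1. Of 14 smooth muscle contractile genes 2 were higher: ACTG2, an actin of visceral muscle, by 1.92 and calponin CNN1 by 1.05. CNN1 passed in 11 of 24 alternatives and not without DFAT replicate 2 or 3 or either DFOG sample. Of 13 stromal cell surface genes 3 were higher (ANPEP, ENG and ICAM1) and 2 were lower (ALCAM and CD34). ENG, the TGF-beta co-receptor endoglin, stood at 7.93, 8.24 and 9.17 in the DFAT arrays and 6.45, 5.88 and 5.90 in the DFOG arrays (2.28 ± 0.33, SE; limma adjusted p = 0.00121) and was not called before culture (0.46).

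Complement and coagulation genes were higher in DFAT for 6 of 22 measured members, beside 4.86% of all named genes, and lower for 0 (median 0.71). The 6 were C1R, C1S, SERPING1 and SERPINF1, described with the largest differences, CD55, which protects cells from complement, and PROS1, an anticoagulant. SERPINF1 is the anti-angiogenic serpin and was counted in the list although it is not a complement or coagulation factor. CD55 stood at 6.42, 5.41 and 6.97 in the DFAT arrays and 4.42, 4.31 and 4.29 in the DFOG arrays (1.91 ± 0.41, SE; limma adjusted p = 0.0141; 1 of 5 probe sets) and had been lower in MA than in GC (-3.24). PROS1 differed by 0.84 and passed in 12 of 24 alternatives. Neither CD55 nor PROS1 passed without either DFOG sample.

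Cytokines and chemokines had called members on both sides. Of 16 measured members 5 were higher and 2 lower in DFAT, beside 4.86% and 5.57% of all named genes, and 9 did not pass (median 0.30). IL6, a cytokine of stromal and fat cells, stood at 7.99, 8.91 and 7.94 in the DFAT arrays and 5.16, 4.47 and 4.63 in the DFOG arrays, a difference of 3.42 ± 0.32 (SE; limma adjusted p = 4.86e-05) beside 2.75 before culture. CXCL14, a chemokine of epithelial and stromal tissue, stood at 10.15, 11.35 and 12.66 in the DFAT arrays and 6.75, 8.05 and 8.19 in the DFOG arrays, a difference of 3.95 ± 0.59 (SE; limma adjusted p = 0.0013) that did not pass with only DFAT and DFOG in the fit. The neutrophil chemokines CXCL8 and CXCL2 differed by 2.48 and 2.37; neither passed without either DFOG sample. AMCF-II, a pig neutrophil chemokine, was higher by 0.72 and was not rerun in the alternatives. LIF, a cytokine of the IL6 family, was the reverse, at 5.93, 6.28 and 5.81 in the DFAT arrays and 9.56, 7.69 and 7.97 in the DFOG arrays (-2.69 ± 0.42, SE; limma adjusted p = 0.00182), and IL18 was lower (-1.19) but did not pass without DFOG replicate 1.

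Interferon-induced genes set the DFAT arrays apart from each other. Of 16 measured members 3 were higher (GBP1, GBP2 and ISG15) and 0 lower, with a median of 1.91. An unadjusted limma p under 0.05 was found for 12 of the 16. The list's mean level ranged over 7.42 to 9.43 in DFAT and 6.43 to 6.66 in DFOG. RSAD2, the antiviral protein viperin, stood at 4.44, 10.32 and 7.92 in DFAT and 4.51, 4.54 and 4.54 in DFOG and did not pass (limma adjusted p = 0.187). IFIT1 stood at 5.78, 9.35 and 6.77 and OAS1 at 4.66, 9.35 and 4.17 in DFAT. DFAT replicate 2 was the highest for each of these genes and was also the array with the highest IRP control probe set (8.50) and with the Y-linked signal; the part of these in the list's level was not tested. ISG15 differed by 2.93 ± 0.81 (SE; limma adjusted p = 0.0495) and GBP1 by 2.16. ISG15 passed in 13 of 24 alternatives, not without DFAT replicate 2 or 3, GBP2 also in 13 of 24, not without any single DFAT array, and none of the 3 genes passed without DFOG replicate 1. Of 17 antigen presentation genes 2 were higher, with a median of 0.07. They were the transporter TAP1 (1.49, in 1 of 3 probe sets) and the proteasome subunit PSMB8 (1.02). Neither passed without DFOG replicate 1, and PSMB8 did not without DFAT replicate 2 or 3.

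Signalling lists had called members on both sides. Of 19 TGF-beta and BMP genes 2 were higher and 3 lower (median 0.04), and the 3 TGF-beta ligands were divided. TGFB3 was at 8.96, 10.21 and 9.25 in DFAT and 6.03, 6.59 and 6.46 in DFOG (3.19 ± 0.33, SE; limma adjusted p = 9.19e-05), and TGFB1 at 6.92, 6.48 and 7.40 and 10.45, 9.09 and 9.31 (-2.89 ± 0.46, SE; limma adjusted p = 0.00218). The groups did not overlap for either ligand. TGFB2 was higher in DFAT by 1.38 and BMP4 lower (-1.95). Of 15 Wnt, Notch and FGF genes 4 were higher and 2 lower (median 0.12): the Notch ligand JAG1, at 10.76, 11.11 and 10.86 in the DFAT arrays and 7.40, 7.51 and 7.39 in the DFOG arrays (3.49 ± 0.39, SE; limma adjusted p = 0.00017), its target HES1, and the growth factors FGF7 (3.42) and FGF2 (2.78) were higher, and DKK3, of the Dickkopf family, (-1.98) and the receptor FGFR2 (-0.86) were lower. Of 12 insulin-like growth factor genes IGF1 (1.05, in 2 of 3 probe sets) and IGFBP6 (1.13, in 1 of 2) were higher and IGFBP5 (-3.20) was lower. TGFB2, HES1, FGF2, FGFR2, IGF1, IGFBP6 and IGFBP5 did not pass without DFOG replicate 1, and all of them but IGFBP6 and IGFBP5 did not without replicates 2 and 3. IGF1, FGFR2 and IGFBP6 were the least stable, passing in 11, 14 and 15 of 24 alternatives, none of them without DFAT replicate 3.

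Epithelial keratin and junction genes differed in few members. Of the 16 measured 3 were lower in DFAT (CLDN11, DSP and KRT19) and 1 was higher (median 0.02). DSP, the desmosomal plaque protein desmoplakin, stood at 3.50, 3.51 and 3.51 in the DFAT arrays and 7.72, 7.77 and 7.75 in the DFOG arrays. The groups were tight and apart by -4.23 ± 0.15 (SE; limma adjusted p = 6.11e-08; 1 of 2 probe sets), with -0.20 between the isolated cells. KRT19, a keratin of simple epithelia and mesothelium, stood at 4.51, 4.11 and 4.03 in the DFAT arrays and 7.98, 9.38 and 8.54 in the DFOG arrays (-4.25 ± 0.30, SE; limma adjusted p = 5.67e-06), beside 0.44 in the isolated cells. CDH11, the cadherin of mesenchymal cells, was higher in DFAT by 1.63 ± 0.24 (SE; limma adjusted p = 0.00118). Of 6 epithelial and mesothelial markers KRT19 alone passed; the list's mean level ranged over 4.56 to 4.90 in DFAT and 5.44 to 5.61 in DFOG, EPCAM lay between 4.20 and 4.26 and CDH1 between 4.26 and 4.49 in DFOG. The part of epithelial cells in these differences was not tested. Of 5 axon guidance and neural adhesion genes 1 was lower in DFAT, the adhesion molecule NCAM1, at 7.71, 7.49 and 8.49 against 10.92, 10.43 and 10.43 in DFOG (-2.78 ± 0.28, SE; limma adjusted p = 7.85e-05).

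Metabolic lists differed in part. Cholesterol synthesis genes were higher in DFAT for 5 of 10 members and lower for 0 (median 1.04). SQLE, squalene epoxidase, stood at 9.71, 10.28 and 9.40 in the DFAT arrays and 8.26, 8.09 and 8.09 in the DFOG arrays (1.62 ± 0.30, SE; limma adjusted p = 0.00538), CYP51, the lanosterol demethylase, at 10.61, 10.81 and 10.79 in the DFAT arrays and 8.93, 9.52 and 9.51 in the DFOG arrays (1.51 ± 0.25; limma adjusted p = 0.00253). SC5D, FDPS and MSMO1 differed by 1.41, 1.31 and 0.93, MSMO1 in 1 of 3 probe sets. The isolated differences did not share 1 direction, 1.45 for CYP51 and -1.49 for SQLE. SC5D and MSMO1 did not pass without DFOG replicate 1, and SQLE and MSMO1 did not without replicates 2 and 3. Of 16 glutathione genes 3 were lower in DFAT and 1 was higher. GPX3, the secreted glutathione peroxidase, was at 6.68, 8.14 and 8.45 in DFAT and 11.54, 11.11 and 11.10 in DFOG (-3.56 ± 0.54, SE; limma adjusted p = 0.00153), GCLC, which makes the glutathione precursor, was lower (-2.30; 2 of 5 probe sets), the transferase GSTO1 was lower (-1.47) but did not pass without DFOG replicate 1, and the microsomal transferase MGST1 was higher by 1.88. Of 9 retinoid and aldehyde genes 4 were higher (ALDH1A1, the retinoic acid carrier CRABP2 by 2.83, the chemoattractant RARRES2 by 2.60, and RBP4) and 1 was lower, RARRES1 (-2.23). Of 9 prostaglandin genes PTGS2 was higher and the receptor PTGER3 lower. Among 5 pluripotency genes KLF4, a factor also active in many stromal cells, was higher by 3.72 ± 0.35 (SE; limma adjusted p = 4.17e-05), and among 15 osteogenic, chondrogenic and myogenic genes the cartilage regulator SOX9 was lower (-1.73 ± 0.24, SE; limma adjusted p = 0.000822).

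**Figure D5:**
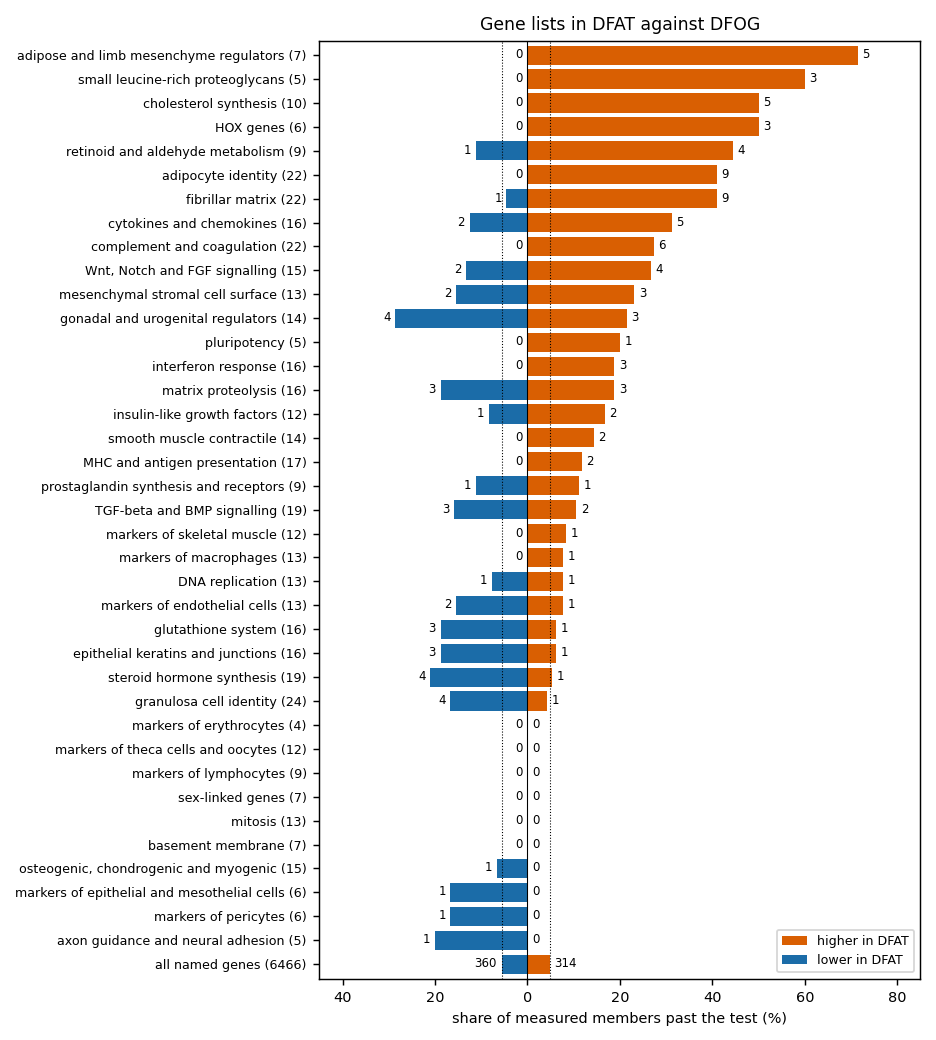
Bars give the percentage of measured members of each of 38 gene lists, and of all named genes, (number measured in parentheses) that were higher (orange, right) or lower (blue, left) in DFAT than in DFOG, with the counts at the bar ends; dotted lines mark the shares over all named genes, 4.86% and 5.57%. Mesenchyme regulators (5 of 7) have the longest bar to the right and gonadal and urogenital regulators (4 of 14) the longest to the left.

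In 87 genes the difference turned round: 24 were lower in MA than in GC but higher in DFAT than in DFOG, and 63 were the reverse. HSD3B1 had the largest turn. ABCB1, a drug efflux pump, stood at 9.37, 8.79 and 9.58 in the DFAT arrays and 5.86, 6.68 and 6.65 in the DFOG arrays (2.98 ± 0.29, SE; limma adjusted p = 5.8e-05; 2 of 3 probe sets) but had differed by -3.44 before culture. TMEM158, a membrane protein induced by Ras, and AREG, the growth factor amphiregulin, differed by 3.45 and 3.88 after -2.69 and -2.16. CD93 (1.26), the imprinted gene PEG10 (1.87), thymidylate synthase TYMS (1.23, in 1 of 2 probe sets) and ACTG2 also turned to the DFAT side. PTGER3, a prostaglandin E receptor, was at 4.31, 4.69 and 4.54 in DFAT and 5.99, 6.15 and 6.15 in DFOG (-1.56 ± 0.18, SE; limma adjusted p = 0.000171) after 4.30. RGCC (-1.43 after 5.55), PMEPA1, a brake on TGF-beta signalling (-1.65 after 5.10), the procollagen protease enhancer PCOLCE2 (-0.95 after 4.93), the phosphatase inhibitor PPP1R1A (-1.12 after 4.71) and MMD (-3.29 after 2.21) turned to the DFOG side, as did BPI. MMD stood at 5.72, 8.12 and 8.09 in DFOG, so the DFOG arrays were far apart. CD93, PEG10, PMEPA1, PCOLCE2, PPP1R1A and TYMS did not pass without DFOG replicate 1, nor, PPP1R1A apart, without replicates 2 and 3. PCOLCE2 passed in 10 of 24 alternatives, not without DFAT replicate 2 or 3; PMEPA1 did not without DFAT replicate 1 or 3, and PEG10 did not without DFAT replicate 1 or 2. In 32 of the 63 the isolated difference was smaller than the constant shift of poly-A centring, so its direction depends on the scale.

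In 111 genes a difference was present in the cultures that was under 0.5 and not called between the isolated cells, 42 higher in DFAT and 69 higher in DFOG. On the DFAT side SST, the peptide hormone somatostatin, stood at 10.23, 8.14 and 7.38 in the DFAT arrays and 4.85, 4.74 and 4.72 in the DFOG arrays. The DFAT arrays spread widely and none overlapped DFOG (3.79 ± 0.59, SE; limma adjusted p = 0.00187), but the gene did not pass with only DFAT and DFOG in the fit. IL11RA, the interleukin 11 receptor, stood at 8.23, 8.69 and 8.83 in the DFAT arrays and 5.75, 5.55 and 5.50 in the DFOG arrays (2.95 ± 0.22, SE; limma adjusted p = 8.98e-06). SLC1A6, a glutamate transporter, DMPK, the myotonic dystrophy kinase, RAMP1, a subunit of the CGRP receptor, and CRISPLD2 differed by 2.96, 3.34, 2.99 and 2.01. On the DFOG side DLX5, a homeobox gene of bone and placenta, stood at 5.90, 6.53 and 5.35 in the DFAT arrays and 9.19, 9.63 and 9.61 in the DFOG arrays (-3.48 ± 0.31, SE; limma adjusted p = 3.24e-05). TRH, thyrotropin-releasing hormone, stood at 4.49, 4.47 and 3.87 in the DFAT arrays and 7.56, 8.40 and 8.38 in the DFOG arrays (-3.70 ± 0.26, SE; limma adjusted p = 6.62e-06). SCARA5, a ferritin receptor, and TOX3 differed by -4.38 and -3.78, beside the SCG2, KRT19, CAP2 and DSP already given. RAMP1 and CRISPLD2 did not pass without DFOG replicate 1, RAMP1 did not without replicates 2 and 3, and DMPK did not with only DFAT and DFOG in the fit.

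In 1158 genes a difference of the isolated cells was no longer found. They reached this from both ends: of the 604 that had been higher in MA, the mean of the cultures lay nearer the lower isolated group in 406 and nearer the higher in 198, and of the 554 that had been higher in GC it lay nearer the lower group in 255 and nearer the higher in 299. CA3, a carbonic anhydrase of fat and muscle, was at 3.85, 4.32 and 4.18 in DFAT and 3.93, 3.93 and 3.89 in DFOG after a difference of 8.84, and the lactonase PON3 (0.07 after 8.68), SGK2 (0.43 after 7.82) and the acyl-CoA synthetase ACSL1 (0.48 after 7.27) were also lost. COL15A1, a basement membrane collagen, was high in both cultures, at 13.06, 13.23 and 13.03 in the DFAT arrays and 12.54, 12.83 and 12.82 in the DFOG arrays, against 12.50 ± 0.08 in MA and 4.12 ± 0.14 in GC. LAMB1, a laminin chain (0.14 after 7.01), and CCL2, a monocyte chemokine (0.23 after 7.11), stood high in both as well. On the granulosa side SERPINE2, a protease inhibitor of the follicle, was high in both cultures, at 11.37, 11.32 and 11.90 in the DFAT arrays and 11.79, 11.08 and 11.06 in the DFOG arrays, against 4.96 ± 0.10 in MA and 13.89 ± 0.42 in GC. The proteoglycan VCAN (-0.08 after -8.04) and the Notch target HEY2 (0.02 after -6.79) were of the same kind. HSD17B1, the transferase GSTA1 (0.11 after -7.67), DAPL1 (-0.34 after -8.32) and ACSL6 (-0.14 after -6.87) were low in both cultures. SFRP1, a secreted Wnt inhibitor, was 9.28, 10.16 and 10.13 in DFOG and 9.23 ± 2.47 in DFAT (mean ± SD, n = 3), where replicate 1 was low and the other arrays were above DFOG; the difference was -0.48.

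Proliferation genes were called in few members, at a share near that of all named genes. Of 13 mitosis genes 0 were called in either direction (limma; median -0.66) and 1, CDC20, had an unadjusted p under 0.05, although 13 of 13 had been lower in MA than in GC. The list's mean level ranged over 6.96 to 9.03 in DFAT and 8.39 to 8.82 in DFOG. TOP2A, the topoisomerase of dividing cells, stood at 9.97, 8.81 and 7.69 in the DFAT arrays and 9.99, 9.33 and 9.28 in the DFOG arrays (difference -0.82 ± 0.54, SE; limma adjusted p = 0.541), and the DFAT arrays overlapped DFOG. Of 13 DNA replication genes TYMS was higher, in 1 of 2 probe sets, and the helicase subunit MCM3 lower (-1.40). The list median was -0.61, and 5 members had an unadjusted limma p under 0.05. Neither TYMS nor MCM3 passed without either DFOG sample.

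Markers of other cells that a culture could hold were low or alike for the most part. Of 13 macrophage markers 1 was higher in DFAT, TYROBP, a signalling adaptor of myeloid cells, at 7.21, 5.94 and 7.44 in the DFAT arrays and 4.71, 5.02 and 4.97 in the DFOG arrays (2.01 ± 0.40, SE; limma adjusted p = 0.00934), while the list's mean level ranged over 4.48 to 4.63 in DFAT and 4.40 to 4.45 in DFOG, and CD163 was 4.28 ± 0.21 and 4.32 ± 0.03. Of 13 endothelial markers ENG was higher, and CD34 (-0.96) and TIE1 (-1.29) were lower; CDH5, the endothelial cadherin, was 4.14 ± 0.25 in DFAT and 3.92 ± 0.01 in DFOG. Of 12 skeletal muscle markers MYL1, a myosin light chain, was higher in DFAT, at 10.45, 7.15 and 7.86 in the DFAT arrays and 5.18, 6.09 and 6.05 in the DFOG arrays (2.86 ± 0.72, SE; limma adjusted p = 0.0327), highest in replicate 1, and MYOD1 was 3.97 ± 0.13 and 4.07 ± 0.08. Of 9 lymphocyte and 4 erythrocyte markers 0 passed limma's test and 0 had an unadjusted p under 0.05. TYROBP, CD34, TIE1 and MYL1 did not pass without DFOG replicate 1, TIE1 and MYL1 did not without replicates 2 and 3, and TIE1 did not without DFAT replicate 2.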

How the data were processed

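RNA of 12 pig samples (4 groups of 3) was measured on an Affymetrix porcine array. The values analysed are log2 expression levels that the authors made with RMA, per the submitters' processing notes; the software version is not given in the sources used here, and no detection calls were used. Background correction compresses low values, and quantile normalization sets all arrays to 1 distribution, so a change shared by most genes cannot be seen. Of 24123 probe sets, 124 controls were set aside and 23999 tested. GEO's platform annotation gave 1 symbol to 10069 probe sets, several to 198 and none to 13732; 9961 were matched by gene ID to a RefSeq table (Sscrofa11.1), which changed 0 symbols. The 437 probe sets with placeholder symbols were left out, and for 2177 genes with several probe sets the 1 with the highest mean level stands for the gene, giving 6466 named genes.

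DFAT minus DFOG, MA minus GC and their difference (interaction) were estimated with limma 3.58.1 in R 4.3.3, in 1 model over all 4 groups with DFOG replicates 2 and 3 averaged (7 residual degrees of freedom), with Benjamini-Hochberg adjustment over the 23999 probe sets and a threshold of 0.05. Kept genes were called the same way in both comparisons and reversed genes the opposite way. Emerged genes were called in culture only, and lost genes in the isolated cells only, with the other difference under 0.5 in size and the interaction called. The text names the 15 largest differences per direction, up to 6 called members per list, the members of the identity, steroid, gonadal, mesenchyme, HOX and sex-linked lists, and 10 kept genes and 8 of each other class per direction; other names were chosen after their values were seen. The members and the 38 gene lists (444 measured genes) were chosen with earlier results of these data known. Scripts were tested on simulated data. Alternatives were a fit of only the groups compared, the replicate number as a block, separate DFOG arrays, a trended robust prior, array weights, an actin covariate, requantiling, centring on the poly-A controls, a filter on low probe sets, a 2-fold minimum, means over probe sets, and leaving out each array. Figures were drawn with matplotlib 3.10.9 (Python 3.11.15; pandas 2.3.3; numpy 2.4.6).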

Additional observations from a re-analysis of the deposited data

Results flagged for a closer look

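The DFAT minus DFOG difference departed from the MA minus GC difference in 1903 named genes by limma's interaction test. The values here are that interaction on the log2 scale, the cultured minus the isolated difference, for the genes named in each class. Among reversed genes it was below 0 for HSD3B1 (-10.14), RGCC (-6.98), PMEPA1 (-6.75), PCOLCE2 (-5.88), PTGER3 (-5.86), PPP1R1A (-5.83), BPI (-5.62) and MMD (-5.50). It was above 0 for ACTG2 (4.32), TYMS (4.46), CD93 (4.66), PEG10 (5.05), CD55 (5.15), AREG (6.03), TMEM158 (6.15) and ABCB1 (6.43).

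Among genes that differed in culture only, those higher in DFOG had interactions of -4.94 (SCG2), -4.70 (KRT19), -4.48 (CAP2), -4.38 (SCARA5), -4.18 (TOX3), -4.03 (DSP), -3.89 (DLX5) and -3.78 (TRH). Those higher in DFAT had 2.51 (CRISPLD2), 2.58 (IL11RA), 2.72 (SLC1A6), 2.82 (RAMP1), 3.42 (ISG15), 3.51 (SST), 3.82 (DMPK) and 3.82 (CHI3L1).

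Among genes whose isolated difference was no longer found, those once higher in MA had interactions of -8.64 (CA3), -8.61 (PON3), -7.96 (COL15A1), -7.39 (SGK2), -6.88 (CCL2), -6.87 (LAMB1), -6.78 (ACSL1) and -6.28 (SFRP1). Those once higher in GC had 6.60 (SERHL2), 6.73 (ACSL6), 6.81 (HEY2), 7.78 (GSTA1), 7.95 (VCAN), 7.98 (DAPL1), 8.43 (HSD17B1) and 9.03 (SERPINE2).

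Outside the measured genes, the 3′ control probe set for IRP read 8.50 on DFAT replicate 2 and 5.48 on DFAT replicate 3, against 2.71 to 3.06 on the other 10 arrays.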

How the results depend on the processing

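Of the 146 called genes that were rerun, 0 changed direction, though in many alternatives the difference is the same by construction. Counts depended on the number of DFOG samples and on scaling. With only the compared groups in the fit, 422 probe sets and 164 named genes were higher and 603 and 206 lower, kept genes were 124 and 107, reversed 14 and 33, and list members higher in DFAT 45. With poly-A centring 675 probe sets and 223 named genes were lower, MA minus GC called 1146 and 19065 probe sets (5252 named genes), the interaction 16040 and 721 (4341 named genes), kept genes higher in DFAT were 103, reversed 55 and 12, lost 93 and 3165, and emerged lower 14. The cause was not tested. The filter on low probe sets left 653 lower probe sets and 34 emerged lower genes, testing fewer features. A 2-fold minimum left 3006 probe sets higher in MA, 1981 isolated calls and 13 and 31 reversed genes. With separate DFOG arrays 39 genes reversed to the DFAT side. Without DFOG replicates 2 and 3, 544 probe sets and 188 named genes were higher, kept lower genes were 116, reversed 10 and 36, emerged higher 22, lost lower 362 and list members higher 53.

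Leaving out 1 array at a time gave 451 to 1095 probe sets higher and 652 to 1085 lower in DFAT, 163 to 387 and 218 to 373 named genes, 127 to 261 and 106 to 198 kept, 8 to 33 and 35 to 64 reversed, 19 to 55 and 50 to 74 emerged, 423 to 637 and 379 to 561 lost, and 49 to 99 and 25 to 45 list members. MA minus GC gave 4163 to 5218 and 4018 to 4950 probe sets and 2778 to 3368 named genes, and the interaction 1965 to 2969 and 2165 to 2930 probe sets and 1395 to 1997 named genes. The lowest DFAT against DFOG counts came without DFOG replicate 1 (163 and 218 named genes, 127 and 106 kept, 8 and 35 reversed, 19 emerged higher, 49 list members higher), and without MA replicate 2 emerged higher genes were 24. The labels do not say whether the replicate number pairs samples. Deviations of same-numbered DFAT and DFOG arrays correlated at 0.17, -0.20 and 0.37. These cannot decide it, because DFOG replicates 2 and 3 were nearly the same array. Same-numbered DFAT and MA arrays correlated at 0.10, 0.17 and 0.13, and unlike-numbered ones at -0.13 to -0.002. Deviations from a group mean cancel within the group, so positive values for like numbers bring negative ones for unlike numbers. The Y-linked EIF1AY was low in replicate 1 and high in replicate 2 of both MA and DFAT. In replicate 3 it was high in MA and low in DFAT. Whether the same number stands for the same animal was not tested. With the number as a block, 925 probe sets were higher and 1078 lower (329 and 365 named genes, 221 and 191 kept), and no count moved by over 1.5 times. Of the 146 genes, CNN1, FGFR2, IGF1, PCOLCE2, PROS1, PSMB8 and RBP4 lost their call in it. The number of arrays, with 2 DFOG samples, limits the precision. Leaving out DFOG replicate 1, or replicates 2 and 3, leaves 1 DFOG sample, so a lost call there does not mark the sample left out.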

Other observations

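The genes here lie outside the naming rule and were chosen after their values were seen. They were not rerun in the alternatives and describe single genes, not a group. CHGB, the secretory granule protein chromogranin B, stood at 4.54, 4.65 and 3.91 in the DFAT arrays and 7.71, 8.27 and 8.21 in the DFOG arrays (-3.61 ± 0.26, SE; limma adjusted p = 7.27e-06), and differed by 0.14 between MA and GC. SCG5, a chaperone of the secretory pathway, differed by -3.76 ± 0.28 (SE; limma adjusted p = 8.02e-06) and by -3.85 between MA and GC. The apolipoproteins APOA1 and APOD differed by -3.76 and -3.33, and the neurotrophin BDNF by -2.87. DFOG also had more of the G protein regulator RGS4 (-3.37, beside -6.10 in the isolated cells), the chemokine receptor CXCR4 (-3.56), the virus receptor and junction protein CXADR (-3.69), the peptidase DPP4 (-3.06), the integrin ITGB3 (-3.20) and CD83 (-4.38). Each of these genes kept all DFAT arrays below all DFOG arrays. The groups were also apart in each of the 674 called genes and in 34.7% of all named genes, so this sets none of them apart.

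Among transcription regulators outside the fixed lists, NFIB, a nuclear factor I gene, stood at 7.77, 9.78 and 9.40 in the DFAT arrays and 5.58, 5.76 and 5.72 in the DFOG arrays (3.32 ± 0.45, SE; limma adjusted p = 0.000711; 4.21 between MA and GC). NFIA, its relative, differed by 2.27 in culture and 6.05 before it, and MEIS1, a homeobox partner of HOX proteins, by 2.34 and 4.97. EPAS1, a hypoxia-inducible factor, stood at 8.88, 9.87 and 10.09 in the DFAT arrays and 6.79, 6.12 and 6.17 in the DFOG arrays (3.15 ± 0.47, SE; limma adjusted p = 0.0013) and was slightly lower in MA than in GC (-0.65). GATA3 was higher in DFAT by 2.86, against GATA4 and GATA6, which were lower. AFF3, HOPX and the chromatin protein HMGA1 were lower (-3.59, -3.25 and -2.81). ACSL1 was not called in culture (0.48), but some other genes of fat metabolism were higher in DFAT: the fatty acid carrier FABP5 (2.35, 8.10 before culture), the acyl-CoA synthetase ACSL5 (3.23, 0.68), the aquaporin AQP3 (2.12, 7.37), the carboxylesterase CES1 (2.45, 7.19) and PCK1, the glyceroneogenesis enzyme, at 6.38, 10.08 and 9.61 in the DFAT arrays and 5.92, 5.02 and 5.01 in the DFOG arrays with DFAT replicate 1 lowest (3.23 ± 0.83, SE; limma adjusted p = 0.0373). CAV1, the caveolar partner of CAV2, differed by 3.17, the stromal peptidase FAP by 3.25 and the small heat shock protein CRYAB by 3.87. CD86, a costimulatory ligand of antigen-presenting cells, stood at 9.29, 9.78 and 9.01 in the DFAT arrays and 5.36, 5.25 and 5.22 in the DFOG arrays (4.07 ± 0.21, SE; limma adjusted p = 8.1e-07).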
